A study of Mus musculus with 17 samples.

Results

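The immediate early genes described here are 10 genes, *Fos*, *Fosb*, *Jun*, *Junb*, *Jund*, *Egr1*, *Ier2*, *Atf3*, *Zfp36* and *Dusp1*, picked by symbol from the 23362 genes of a table of RNAseq counts of mouse testis. All 10 were in the table, each as a single gene identifier, and all 10 passed the filter on low counts. The study compared testis tissue of *Inha* wild-type (WT) mice with 3 regions microdissected from *Inha* knockout (KO) mice, which lack the inhibin alpha subunit and develop gonadal stromal tumours. The regions were tubules distant from any tumour (‘normal’, N), tumour associated tubules next to a tumour (TAT) and the tumours themselves (TM). TAT and TM were recognised during dissection by their rich blood supply.

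All animals were of the strain given as C57/Bl6, received no treatment that the labels name, and were adult. The labels carry 2 ages for the same samples, postnatal day 48 to 52 in one field and 53 to 55 in another. The WT animals were 79783, 79811 and 79852, with 1 library from each. From KO animals 79781 and 79853 there was 1 library of each region, and from KO animal 79813 there were N and TAT of both testes, 1 tumour of testis 1 and 3 separate tumours of testis 2. N, TAT and TM thus came from the same 3 animals, and WT from 3 others. Where an animal gave several libraries of a region their counts were added up, which left 3 animals in each group. The sources used here do not say which part of *Inha* is missing from the KO allele.

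The total per library ranged from 6349358 to 35454195 counts for WT, from 24739160 to 32382283 for N, from 17413667 to 25065616 for TAT and from 9139835 to 18995984 for TM. WT animal 79783 had the shallowest library, where a gene with no count could still have had up to 0.530 CPM (the count per 1000000 counts of a library, after TMM normalisation in edgeR). *Inha* itself had 62.9 to 70.6 CPM in WT and 0.510 to 5.24 CPM in the KO libraries. Reads from a part of the gene that the allele keeps would not test the genotype.

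Immediate early genes are transcribed within minutes of a stimulus, from promoters that are ready before it arrives and without the need for new protein. Growth factors, stress and calcium activate mitogen-activated protein kinases (MAPK), which act on serum response factor with its ELK partners and on CREB, and these switch the genes on. Many of the products are transcription factors, which in turn drive slower genes, and others end the response by removing messenger RNA or by switching the kinases off. The class is defined by time courses in stimulated cells. No time course was part of this study, so that the class is used here as a list of names and each value is a level in whole tissue at 1 time of collection.

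*Fos* and *Atf3* had the largest log2 differences between TM and WT of the 10 members, and their order changed with the processing. Its product pairs with a JUN protein to form activator protein 1 (AP-1), which binds DNA and regulates proliferation genes. *Fos* (ENSMUSG00000021250, chromosome 12 of GRCm38, 85473890 to 85477273, plus strand) had 0, 0.827 and 0.286 CPM in WT animals 79783, 79811 and 79852. In KO animals 79781, 79813 and 79853, always in this order from here on, it had 1.38, 2.36 and 4.95 CPM in N, and TAT had 8.97, 4.74 and 8.81 CPM. The tumours of these animals had 47.4, 39.3 and 71.3 CPM. All KO values thus lay above all WT values, TM lay far above the rest, and N and TAT overlapped because N of animal 79853 was higher than TAT of animal 79813. The WT level was based on 31 counts in all, so the size of any fold against WT is imprecise.

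Set against WT, *Fos* was higher by 2.61 in N on the log2 scale (SE 0.654), which did not pass the test over all genes (edgeR quasi-likelihood, adjusted p = 0.292). It rose by 3.98 in TAT (SE 0.672, edgeR adjusted p = 0.00259) and by 6.79 in TM (SE 0.734, edgeR adjusted p = 4.24e-05). Within the KO animals *Fos* rose from N to TM by 4.29 (SE 0.406, edgeR adjusted p = 0.00109) and from TAT to TM by 2.82 (SE 0.379, edgeR adjusted p = 0.0164). From N to TAT it was higher by 1.47 in 3 of 3 animals without passing (edgeR adjusted p = 0.0821).

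*Jun* encodes the JUN protein, the partner of FOS in AP-1 and able to pair with itself. It (ENSMUSG00000052684, chromosome 4, 95049034 to 95052222, minus strand) had 16.1, 9.95 and 12.1 CPM in WT, and N had 22.2, 19.2 and 27.2 CPM. It had 75.8, 34.3 and 82.5 CPM in TAT, and TM had 164.6, 163.3 and 209 CPM. Over the summed libraries the 4 groups stood apart without any overlap, in the order WT, N, TAT and TM, and TAT of animal 79813 was the lowest of its group. Single libraries of testis 1 of this animal did overlap. Its N had 14.4 CPM, below the 16.2 CPM of WT animal 79783, and its TAT had 27.2 CPM, below the 27.5 CPM of N of animal 79853. *Jun* rose against WT by 2.35 in TAT (SE 0.331, edgeR adjusted p = 0.00143) and by 3.83 in TM (SE 0.351, edgeR adjusted p = 3.06e-05). The difference between N and WT was 0.86 (SE 0.319, edgeR adjusted p = 0.537) and did not pass. Within the KO animals *Jun* rose by 3.03 from N to TM (SE 0.269, edgeR adjusted p = 0.00109) and by 1.58 from TAT to TM (SE 0.257, edgeR adjusted p = 0.0164), and the 1.45 from N to TAT missed the threshold (SE 0.256, edgeR adjusted p = 0.0661).

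The stretches of DNA before *Fos* and *Jun* are shown because these members rose together in TAT and TM. Each is the 250 bases before the start site in RefSeq (GRCm38.p6, chr12:85473640-85473889 plus strand for *Fos* and chr4:95052223-95052472 minus strand for *Jun*), read 5′ to 3′. A further stretch comes from the promoter of *Dusp1*, a member that did not pass against WT in any region (chr17:26508583-26508652, minus strand, 180 to 111 bases before the start). Capitals mark the letters of a cyclic AMP response element (CRE, TGACGTCA), of its core (TGACGT) or of a TATA box (TATAAA).
Fos: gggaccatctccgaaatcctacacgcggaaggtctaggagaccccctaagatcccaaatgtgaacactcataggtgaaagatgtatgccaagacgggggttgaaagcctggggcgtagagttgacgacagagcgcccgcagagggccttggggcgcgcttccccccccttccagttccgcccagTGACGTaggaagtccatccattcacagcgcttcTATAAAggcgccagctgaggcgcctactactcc
Jun: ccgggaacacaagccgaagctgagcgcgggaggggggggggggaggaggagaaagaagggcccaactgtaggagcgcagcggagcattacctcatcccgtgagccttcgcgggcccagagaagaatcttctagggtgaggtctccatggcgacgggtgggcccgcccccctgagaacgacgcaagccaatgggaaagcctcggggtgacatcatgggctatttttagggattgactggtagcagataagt
Dusp1: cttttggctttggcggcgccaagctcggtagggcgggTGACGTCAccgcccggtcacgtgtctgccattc

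In the *Fos* stretch the core lay 66 to 61 bases and the TATA box 33 to 28 bases before the start. The *Jun* stretch held none of the letters searched, and the *Dusp1* stretch held a complete CRE at 143 to 136 bases before the start. RefSeq sequences were matched for 8 of the 10 members, all but *Egr1* and *Ier2*, and both strands were searched. The complete CRE was found in 1 of the 8 and in 1.55% of all 32851 promoters of this length, and its core, which lies within it and was chosen after the stretches were seen, in 3 of the 8 (*Fos*, *Atf3* and *Dusp1*) and in 6.47% of all. The CArG box that serum response factor binds was found in 1 of the 8 (*Zfp36*) and in 1.47% of all, and an EGR site (GCGNGGGCG) in 2 of the 8 (*Fosb* and *Zfp36*) and in 4.70% of all. The TATA letters were found in 1 of the 8 and in 12.4% of all, and an AP-1 site (TGANTCA) in 0 of the 8 and in 6.75% of all. The RefSeq start met the outer end of the gene in GENCODE for *Fos* and *Jun*. For *Dusp1* and *Atf3* the longest GENCODE transcript begins far upstream of the RefSeq start, and for *Fosb*, *Junb*, *Jund* and *Zfp36* the starts also differ. All 250 bases of the *Zfp36* stretch, which held the CArG box, lie in GENCODE exons. The *Jund* stretch ends at base 70697738, and the GENCODE gene begins at 70698949. A match of letters does not show binding. Only exact letters within these stretches were searched, so the lack of a match does not show that a gene lacks the element.

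*Egr1* encodes a zinc finger factor that responds to growth factors through serum response factor. It had 8.49, 4.20 and 4.63 CPM in WT, and N had 6.19, 5.47 and 7.10 CPM. TAT samples had 17.3, 10.7 and 26.1 CPM and TM samples 48.2, 49.7 and 54.7 CPM. N lay within the WT range, TAT above it in all 3 animals, and TM higher still with little spread between the animals. The TM value of animal 79813 was summed over its tumours, which singly had 33.0 to 74.2 CPM. Its single TAT library of testis 1 had 7.49 CPM, below the 8.55 CPM of WT animal 79783. *Egr1* rose by 1.68 in TAT (SE 0.359, edgeR adjusted p = 0.00788) and by 3.18 in TM against WT (SE 0.376, edgeR adjusted p = 6.24e-05), and N differed from WT by 0.15 (95% interval -0.61 to 0.92). It rose by 3.09 from N to TM and by 1.61 from TAT to TM (edgeR adjusted p = 0.00109 and 0.0164). From N to TAT it was higher by 1.48 in 3 of 3 animals, with no overlap between the groups and an adjusted p of 0.0661 in edgeR.

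**Figure D1:**
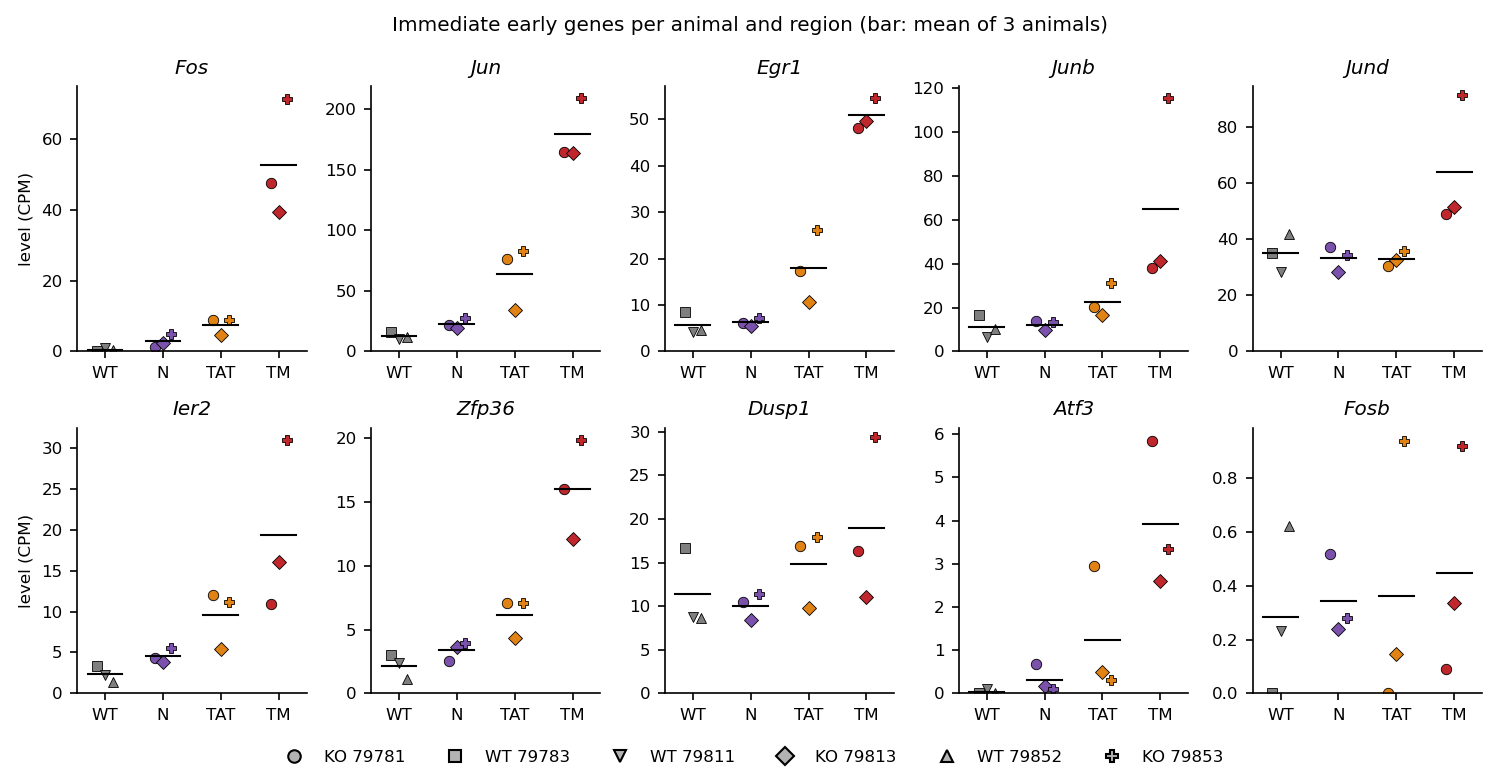
Level in CPM (vertical axis, from 0, with its own scale for each gene) of the 10 immediate early genes in WT, N, TAT and TM. Each symbol is 1 animal, coded by shape, and the bar is the mean of 3 animals; *Jun* and *Egr1* climb to TM, where they reach 163.3 to 209 CPM and 48.2 to 54.7 CPM, while the groups of *Dusp1* and *Fosb* overlap.

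*Junb* and *Jund* encode the other JUN proteins. JUNB is an inducible partner that can hold back JUN, and JUND is the JUN protein of resting cells, whose gene is far less inducible than the others. *Junb* (chromosome 8, 84974484 to 84978718, minus strand) had 16.4, 6.61 and 10.2 CPM in WT, and N had 13.9, 9.59 and 13.2 CPM. It had 20.2, 16.5 and 31.1 CPM in TAT, and TM had 37.9, 41.3 and 115.6 CPM. N lay within the WT range, TAT of every animal lay above WT although TAT of animal 79813 did so by a narrow margin, and TM of animal 79853 stood far above the other tumours. The single TAT library of testis 2 of KO animal 79813 had 14.8 CPM, below the 16.6 CPM of WT animal 79783. *Junb* rose by 2.58 in TM (SE 0.480, edgeR adjusted p = 0.00075), and its 1.05 in TAT did not pass (SE 0.461, edgeR adjusted p = 0.127). From N to TM it rose by 2.29 and from TAT to TM by 1.45 (edgeR adjusted p = 0.00138 and 0.0179).

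*Jund* (chromosome 8, 70698949 to 70700616, plus strand) had 35.0, 28.4 and 41.9 CPM in WT, and N had 37.4, 28.2 and 34.3 CPM. TAT had 30.4, 32.6 and 36 CPM and TM 49.2, 51.5 and 91.5 CPM. WT, N and TAT shared a range, and only TM lay above it. This held for the summed libraries. The single library of tumour 2 of testis 2 of KO animal 79813 had 41.4 CPM, below the 42.0 CPM of WT animal 79852. The differences from WT were -0.08 in N (95% interval -0.65 to 0.50) and -0.09 in TAT (95% interval -0.67 to 0.49). In TM *Jund* rose by 0.87 (SE 0.268, edgeR adjusted p = 0.0146), which fell to 0.52 without KO animal 79853 (edgeR adjusted p = 0.106) and to 0.73 without WT animal 79811 (edgeR adjusted p = 0.0669). It rose by 0.95 both from N to TM and from TAT to TM (edgeR adjusted p = 0.013 and 0.0279). Without KO animal 79781 neither call held (edgeR adjusted p = 0.0586 and 0.215), and the call between TM and TAT was also lost without KO animal 79813 (edgeR adjusted p = 0.0565).

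Each summed library gives its own ratio of *Jun* counts to *Jund* counts, to which depth and scaling do not contribute. The pairs of genes for such ratios were chosen after the levels were seen, so that the ratios are given without a test. The ratio was 0.460, 0.35 and 0.288 in WT, 0.593, 0.682 and 0.795 in N, 2.49, 1.05 and 2.29 in TAT and 3.35, 3.17 and 2.28 in TM. Summed per animal, WT and N both had fewer *Jun* than *Jund* counts in every animal, TAT and TM had more, and TAT and TM overlapped. The single TAT library of testis 1 of KO animal 79813 had 576 *Jun* and 589 *Jund* counts. *Egr1* to *Jund* ran from 0.111 to 0.242 in WT and from 0.166 to 0.207 in N, which overlapped, from 0.327 to 0.726 in TAT and from 0.597 to 0.980 in TM.

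*Fosb* encodes a FOS protein best known from neurons. It (chromosome 7, 19302696 to 19310051, minus strand) had 0, 0.232 and 0.620 CPM in WT, 0.516, 0.238 and 0.280 CPM in N, then 0, 0.148 and 0.938 CPM in TAT, and TM had 0.0914, 0.335 and 0.918 CPM. No region stood apart. Its counts summed to 20 in WT, 35 in N, 25 in TAT and 37 in TM, and the interval of its difference between TM and WT ran from -2.74 to 3.85 on the log2 scale. A change of several-fold in either direction was therefore not detectable at this depth.

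*Ier2* and *Atf3* are the remaining regulators of transcription on the list. *Ier2* encodes a small nuclear protein with a role in transcription. It (chromosome 8, 84661331 to 84662852, minus strand) had 3.36, 2.28 and 1.43 CPM in WT, 4.39, 3.89 and 5.60 CPM in N, then 12.1, 5.42 and 11.2 CPM in TAT, and TM had 11, 16.1 and 30.9 CPM. All KO values lay above all WT values, and neighbouring KO regions overlapped. *Ier2* rose by 2.06 in TAT (SE 0.496, edgeR adjusted p = 0.0139) and by 3.08 in TM (SE 0.512, edgeR adjusted p = 0.00037). N was higher by 1.02 without passing (SE 0.486, edgeR adjusted p = 0.683). From N to TM *Ier2* rose by 2.05 (SE 0.404, edgeR adjusted p = 0.00418), and the 1.02 between TM and TAT, higher in 2 of 3 animals, did not pass (SE 0.399, edgeR adjusted p = 0.0968).

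*Atf3* encodes a stress-induced factor of the ATF and CREB family that pairs with JUN proteins. It (chromosome 1, 191170296 to 191218039, minus strand) had 0, 0.0992 and 0 CPM in WT, 0.688, 0.170 and 0.0934 CPM in N, then 2.94, 0.487 and 0.313 CPM in TAT, and TM had 5.85, 2.59 and 3.34 CPM. KO animal 79781 was the highest in each of the 3 regions, and in TAT it alone lay far above the other animals. The 3 WT libraries together held 3 counts of *Atf3*, so the ratios below were taken from summed counts, with exact 95% intervals that cover counting error only. The ratio to WT was 4.81 in N (1.49 to 24.7), 19.1 in TAT (6.33 to 94.6) and 58.8 in TM (19.9 to 287). edgeR called *Atf3* higher in TAT (adjusted p = 0.0377) and in TM (adjusted p = 0.00298). The call in TAT was lost without WT animal 79783, 79811 or 79852 (edgeR adjusted p = 0.0871, 0.0535 and 0.116) and without KO animal 79781 (edgeR adjusted p = 0.219).

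The last 2 members act against the response. ZFP36, also named tristetraprolin, binds AU-rich elements of messenger RNA and hastens its decay. *Zfp36* (chromosome 7, 28376784 to 28380253, minus strand) had 3.01, 2.41 and 1.10 CPM in WT, 2.54, 3.67 and 3.95 CPM in N, then 7.10, 4.34 and 7.09 CPM in TAT, and TM had 16.0, 12.1 and 19.9 CPM. WT and N overlapped, and TAT and TM each stood clear of the groups below them. This held for the summed libraries. Among the single libraries of KO animal 79813, N of testis 2 had 4.995 CPM, above the 4.053 and 4.635 CPM of TAT of testis 1 and testis 2. *Zfp36* rose by 1.54 in TAT (SE 0.446, edgeR adjusted p = 0.0314) and by 2.91 in TM (SE 0.464, edgeR adjusted p = 0.000291). The call in TAT did not hold when WT animal 79811, WT animal 79852, KO animal 79781 or KO animal 79853 was left out (edgeR adjusted p = 0.0682, 0.107, 0.168 and 0.11). *Zfp36* rose by 2.25 from N to TM and by 1.40 from TAT to TM (edgeR adjusted p = 0.00202 and 0.027). The call from TAT to TM was lost without KO animal 79781, 79813 or 79853 (edgeR adjusted p = 0.215, 0.0737 and 0.0512).

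DUSP1 is a nuclear phosphatase that switches MAPK off, and its gene is induced by the same kinases. *Dusp1* (chromosome 17, 26505590 to 26562128, minus strand) had 16.6, 8.76 and 8.69 CPM in WT, and N had 10.5, 8.38 and 11.4 CPM. It had 16.9, 9.78 and 17.9 CPM in TAT, and TM had 16.4, 11 and 29.4 CPM. Every pair of regions overlapped, and WT animal 79783 was as high as TM of animal 79781. Against WT the differences were -0.16 in N (95% interval -1.05 to 0.73), 0.40 in TAT (-0.49 to 1.29) and 0.75 in TM (-0.14 to 1.64), and none passed. Without WT animal 79783 the difference in TM was 1.10 (edgeR adjusted p = 0.0498), and without KO animal 79813 it was 1.12 (edgeR adjusted p = 0.0336). With all animals kept and scaling by total library size it was 1.1 and passed (edgeR adjusted p = 0.0422). Within the KO animals *Dusp1* rose from N to TM by 0.86 in 3 of 3 animals (SE 0.293, edgeR adjusted p = 0.0387), a call that was lost without KO animal 79781 or 79853 and under several other settings. The intervals do not show that *Dusp1* held still.

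Since *Fos* and *Jun* had risen where *Dusp1* did not pass, their counts were set against its counts in each summed library, again without a test. *Jun* to *Dusp1* was 0.968, 1.14 and 1.39 in WT, 2.12, 2.29 and 2.40 in N, 4.49, 3.51 and 4.6 in TAT and 10.1, 14.8 and 7.12 in TM. *Fos* to *Dusp1* was 0, 0.0943 and 0.0330 in WT, 0.132, 0.282 and 0.436 in N, 0.532, 0.485 and 0.491 in TAT and 2.90, 3.56 and 2.43 in TM. Over the summed libraries both ratios separated all 4 groups with no overlap, in the order WT, N, TAT and TM. In the single TAT library of testis 1 of KO animal 79813, *Fos* had 89 counts and *Dusp1* 214. Their ratio there was below the 0.436 of N of animal 79853, so that N and TAT overlapped among single libraries. *Jun* counts were about level with *Dusp1* counts in WT and far above them in every tumour.

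**Figure D2:**
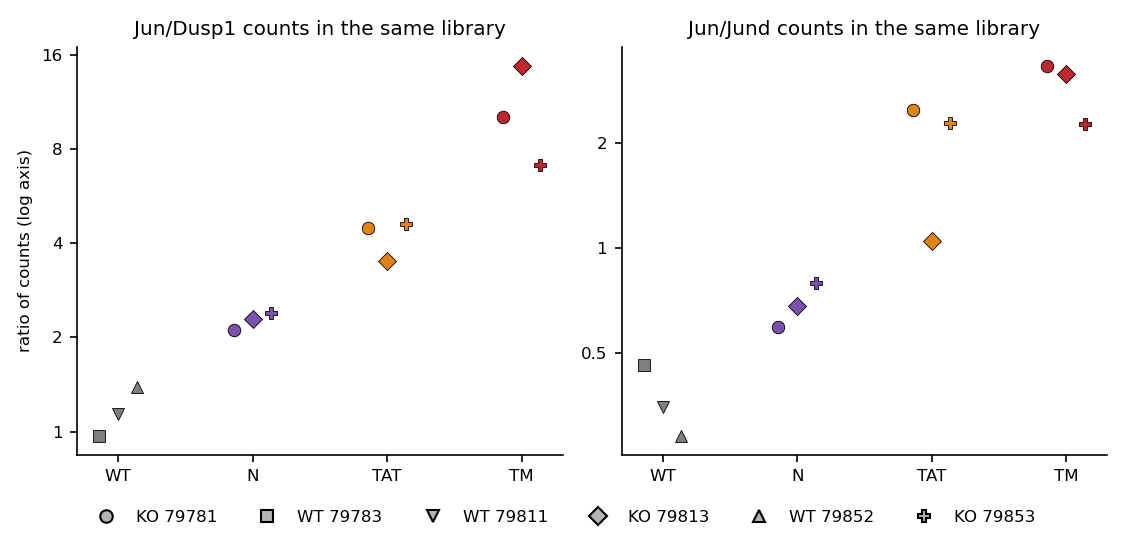
Ratio of *Jun* counts to *Dusp1* counts (left) and to *Jund* counts (right) in each summed library, on a log axis. Each symbol is 1 animal, coded by shape; the left ratio runs from 0.968 to 1.39 in WT and from 7.12 to 14.8 in TM with no overlap between groups, and in the right one TAT and TM overlap.

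Counted together, 0 of the 10 members were called in N against WT with an adjusted p below 0.05 and more than a 1.5-fold difference, beside 0.0404% of the 19791 genes tested. At an unadjusted p under 0.05 the edgeR test had 2 members (*Fos* and *Jun*), and DESeq2 called 1 (*Fos*, adjusted p = 0.0148). The animals of N and WT did not overlap in 3 members, all higher in N (*Fos*, *Jun* and *Ier2*), beside 12.3% of all genes. In TAT against WT 6 members were called higher and 0 lower, beside 14.4% and 4.61% of all genes, and 7 lay above WT without overlap, beside 26% of all genes. Among the 7 was *Atf3*, at 0.487 and 0.313 CPM in TAT of KO animals 79813 and 79853. Both values lay below the 0.530 CPM that its 0 in WT animal 79783 could hide. In TM against WT 8 members were called higher and 0 lower, beside 27.8% and 30.6% of all genes, and the same number lay above WT without overlap, beside 30.9%. The comparisons share the 3 WT animals, so their counts do not add up as separate evidence.

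The median log2 difference of the 10 members from WT was 0.42 in N, 1.61 in TAT and 2.99 in TM, where the median of all genes tested was 0.03, 0.07 and -0.07. The count in TAT moved with single animals. It came down to 3 members without WT animal 79852 and to 2 members (*Fos* and *Jun*) without KO animal 79781, whose TAT held the highest *Fos*, *Ier2* and *Atf3*. In TM the count stayed between 7 and 9 whichever animal was left out.

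**Figure D3:**
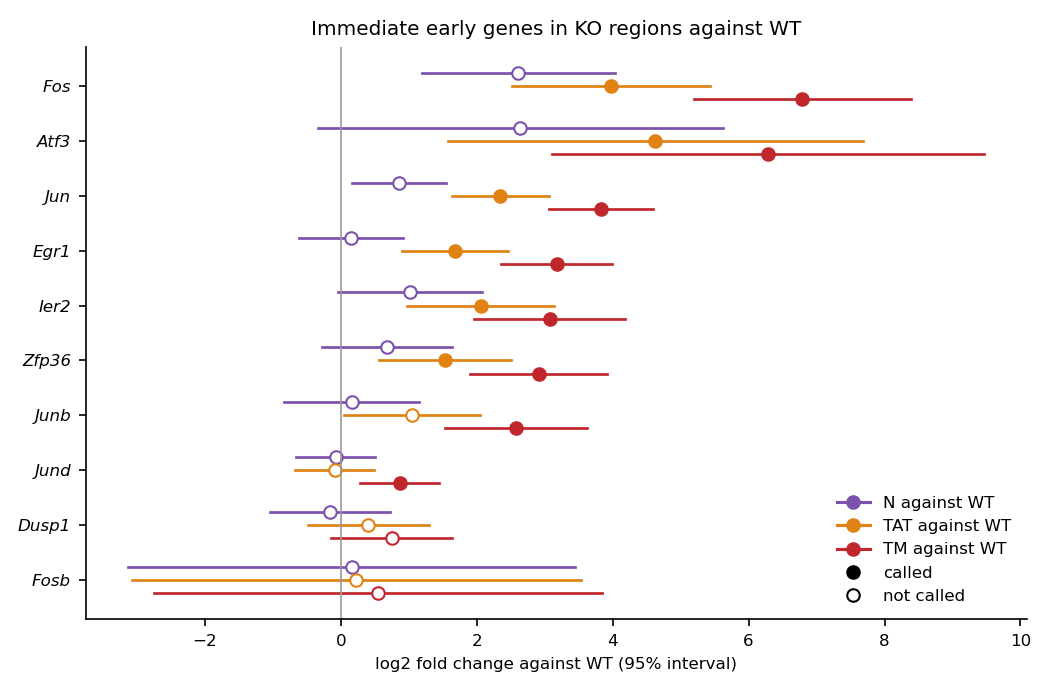
Log2 fold change of each member in N, TAT and TM against WT (horizontal axis) with its 95% interval from the edgeR fit. Filled points passed the test; 0, 6 and 8 of the 10 members are filled, and *Fosb* has the wide intervals of a gene with few counts.

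Within the KO animals, each region was compared with the others of the same animal. In TM against N 9 members rose, all but *Fosb*, and 0 fell, beside 24.9% and 28.5% of the 19293 genes tested, and 8 lay above N without overlap, beside 30.8%. The count was 6 without KO animal 79781, when *Jund*, *Atf3* (edgeR adjusted p = 0.059) and *Dusp1* were lost, beside 15.6% of genes called in either direction. It was 7 with only the groups compared, without *Jund* (edgeR adjusted p = 0.0521) and *Dusp1*, and 7 with testis 1 alone of KO animal 79813, without *Atf3* (edgeR adjusted p = 0.0754) and *Dusp1*. In TM against TAT 6 members rose (*Fos*, *Jun*, *Junb*, *Jund*, *Egr1* and *Zfp36*) and 0 fell, beside 7.65% and 17.7% of all genes, and the same 6 lay above TAT without overlap, beside 18%. That count dropped to 0 without KO animal 79781, when no gene of the table was called, and to 3 without KO animal 79813, and it was 5 without KO animal 79853.

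In TAT against N 0 members were called, beside 0% of all genes. The edgeR test had 7 members and 4517 genes at an unadjusted p under 0.05, and DESeq2 called 3 members (*Fos*, *Jun* and *Egr1*) beside 19.3% of all genes. limma-voom on the 17 libraries called 2 (*Jun* and *Egr1*) beside 11.4% of all genes. *Jun*, *Junb*, *Egr1* and *Zfp36* lay above N in TAT without overlap, 4 members beside 22% of all genes. Without KO animal 79813, in which TAT of *Jun* and *Egr1* was lowest, edgeR called *Jun* (adjusted p = 0.0202) and *Egr1* (adjusted p = 0.0295), beside 7.37% of all genes. The median of the members was 0.94 in TAT against N, 2.27 in TM against N and 1.43 in TM against TAT, where the median of all genes was 0.03, -0.10 and -0.16.

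KO animal 79813 allowed pieces of the same animal to be compared, from testis 1 and testis 2, without replicates. *Fos* had 2.24 and 2.55 CPM in N of the 2 testes, 4.20 and 5.26 CPM in TAT, 41.8 CPM in the tumour of testis 1 and 48.1, 31.8 and 31.0 CPM in the 3 tumours of testis 2. *Jun* had 14.4 and 24.5 CPM in its N pieces, 27.2 and 40.7 CPM in TAT, 194.8 CPM in the tumour of testis 1 and 148.2, 133 and 158.3 CPM in those of testis 2. For both genes every tumour lay several-fold above every TAT piece. *Egr1* had 74.2 CPM in the tumour of testis 1 and 54.5, 33.0 and 37.6 CPM in those of testis 2, and 7.49 to 13.4 CPM in TAT.

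*Ier2* also differed among the tumours of this animal, and *Atf3* and *Dusp1* differed more. *Ier2* had 19.2 CPM in the tumour of testis 1 and 8.25, 16.1 and 17.8 CPM in those of testis 2, where the first came close to the 6.78 CPM of TAT of that testis. *Atf3* had 0.229 CPM in the tumour of testis 1 and 2.17, 5.30 and 1.34 CPM in those of testis 2, so that 1 tumour of the 4 lay below both TAT pieces. *Dusp1* had 6.10 CPM in the tumour of testis 1 and 13.4, 16.1 and 5.22 CPM in those of testis 2. Both the lowest and the highest *Dusp1* of the animal were thus found in tumours, which also came from the same testis.

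**Figure D4:**
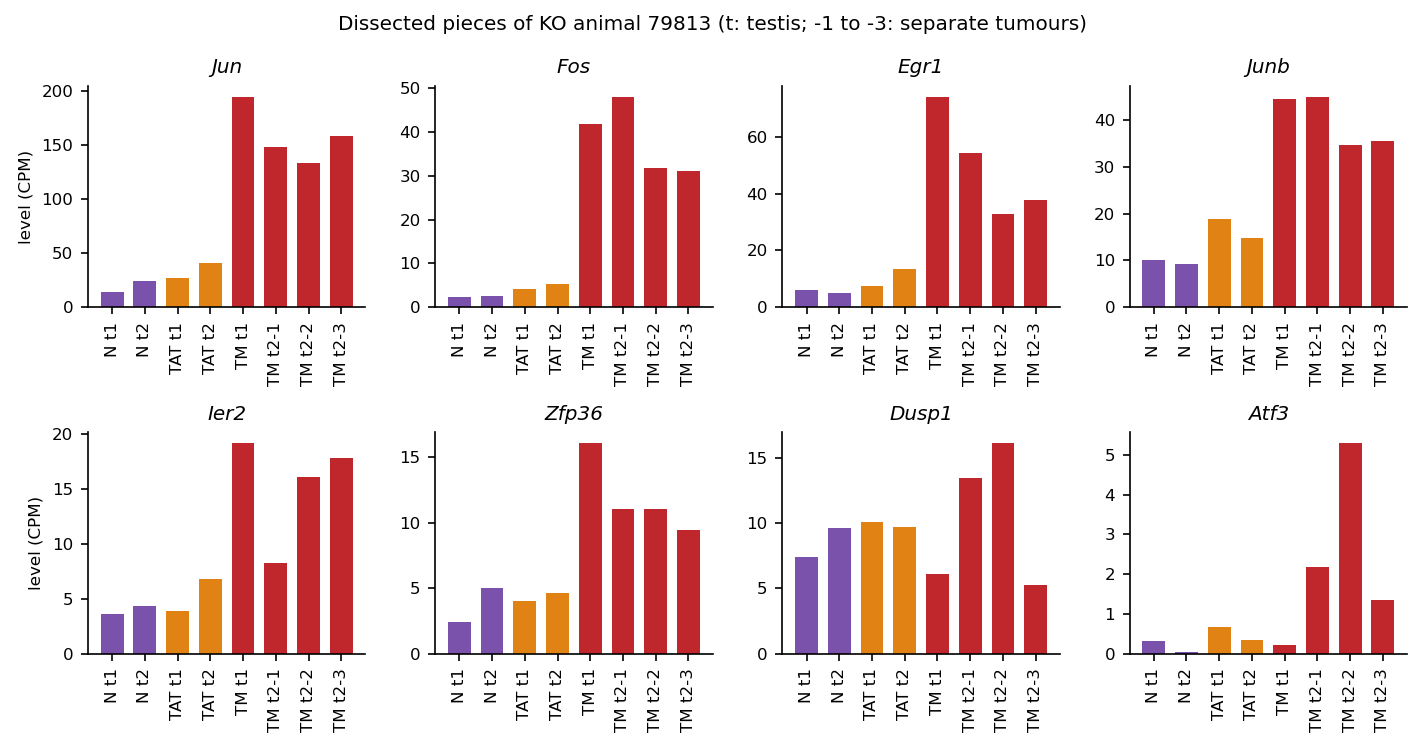
Level in CPM (vertical axis, from 0) of 8 members in the 8 dissected pieces of KO animal 79813; each bar is 1 library, coloured by region. *Jun* is at 133 to 194.8 CPM in the 4 tumours and at 40.7 CPM or below in the other pieces, whereas *Dusp1* and *Atf3* are uneven among the tumours.

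The spread between animals of a group, as a pooled SD of log2 CPM, was 0.31 for *Jund*, 0.42 for *Jun* and 0.43 for *Egr1*. It was 1.09 for both *Fos* and *Atf3* and 1.46 for *Fosb*, the members with few counts in WT. The median was 0.55 over the members and 0.70 over all genes tested. Within TM the SD was 0.10 for *Egr1* and 0.20 for *Jun* and reached 0.90 for *Junb*. These SDs are over summed libraries and leave out the range among tumours of 1 animal, which for *Egr1* was 33.0 to 74.2 CPM in KO animal 79813.

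Over the 12 summed libraries, which share 4 groups and 3 KO animals, the log2 levels of *Jun* and *Egr1* ran most closely together (Pearson r = 0.98, n = 12), followed by *Jun* with *Zfp36* (0.955) and with *Ier2* (0.953). *Fos* and *Jun* had an r of 0.899 and *Fos* and *Dusp1* of 0.45. *Dusp1* was closest to *Junb* (0.833), and *Fosb* had an r of -0.03 to 0.44 with the other members. These are descriptions over groups that differ, and values as high were reached by genes outside the list. Among 9960 genes with at least 10 CPM on average, the most alike to *Jun* were *Serpine2* and *Dab2* (r = 0.995 and 0.994), to *Egr1* *Zfp266* and *Tmem167* (0.994 for each), to *Fos* *Fam81a* and *Vdac1* (0.985 for each), to *Ier2* *Setd8* and *Loxl2* (0.987 and 0.985) and to *Zfp36* *Tgs1* and *Lrrfip1* (0.982 and 0.98). The others were *Lrrc2* and *Tmed5* for *Junb* (0.987 and 0.981), *Emilin2* and *Eno1* for *Jund* (0.936 and 0.931), *Ifngr2* for *Atf3* (0.956), *Mogs* and *Kcnq1ot1* for *Dusp1* (0.883 for each) and *Elac2* and *Ndnl2* for *Fosb* (0.867 and 0.838).

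Other genes of the pathway were counted from lists of known genes. No gene of any of these lists was called in N against WT. The counts below are to be read beside all genes, of which 14.4% rose and 4.61% fell in TAT and 27.8% rose and 30.6% fell in TM. Of 30 other immediate early genes tested, 13 rose and 2 fell in TAT, and 17 rose and 7 fell in TM. *Myc*, which drives growth and division, had 0.177, 0.529 and 0.620 CPM in WT, 1.51, 1.22 and 1.18 in N, 11.8, 5 and 14.7 in TAT and 29.7, 39.5 and 39.4 CPM in TM. It rose by 4.39 in TAT and 6.18 in TM on the log2 scale (edgeR adjusted p = 0.000802 and 2.4e-05), and as in *Fos* the 4 groups ran in the order WT, N, TAT and TM, here without overlap. *Klf6*, a zinc finger factor, rose by 2.29 and 2.75 and *Nfkbia*, the inhibitor of NF-kappaB, by 1.49 and 2.41.

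The immediate early genes that fell are the ones against the majority of this list. *Nr4a1*, an orphan nuclear receptor gene induced by the same stimuli as *Fos*, had 28.5, 26.6 and 29.6 CPM in WT, 16.0, 12.6 and 17.7 CPM in N, then 8.01, 6.88 and 11.2 CPM in TAT, and TM had 11.9, 9.09 and 6.10 CPM. It fell by 1.70 in TAT and by 1.65 in TM on the log2 scale (edgeR adjusted p = 0.00358 and 0.000783). Its relative *Nr4a3* fell by 4.11 in TM, and *Klf4*, a factor of differentiating cells and of spermatids, fell by 1.06 in TAT and by 1.97 in TM. In TM *Arc*, best known from synapses, fell by 3.21, *Csrnp1* fell by 2.09 and *Mcl1* fell by 0.89. *Egr3* was also called lower in TM, but had only 0, 0.661 and 0.525 CPM in WT, and TM had 0, 0.0305 and 0 CPM, too few counts for a fold and with an overlap at 0. *Arc* had 106 to 111 CPM in WT and 2.82 to 22.8 CPM in TM, and *Klf4* 158 to 213 CPM in WT and 37.7 to 54.4 CPM in TM, with no overlap in either.

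Among 11 other AP-1 and dimer partner genes 4 rose in TAT and 0 fell, and 5 rose and 1 fell in TM. *Fosl2*, which encodes the FOS relative FRA2, rose by 3.76 and 5.38 and *Mafg* and *Mafk*, small MAF partners, by 1.82 and 0.93 in TAT and by 2.98 and 1.39 in TM. *Atf2*, the partner of JUN on CRE sequences, fell by 0.77 in TM. Of the 16 upstream kinase and serum response genes 3 rose and 1 fell in TAT and 9 rose and 3 fell in TM. *Map2k1*, the kinase above ERK, rose by 2.07 and 3.21 and *Elk1*, a partner of serum response factor, by 2.22 and 3.09. *Crem* (a CRE factor of spermatids) fell by 2.83 in TM, *Mapk10* (a JUN kinase of nerve and testis) fell by 2.44 and *Mkl1* (a cofactor of serum response factor) fell by 1.22. Serum response factor itself, *Srf*, differed by -0.22 in TM and did not pass.

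Of 9 tested phosphatases that act beside DUSP1, 1 rose and 2 fell in TAT, beside 14.4% and 4.61% of all genes. In TM 3 rose and 2 fell, beside 27.8% and 30.6% of all genes. *Dusp6*, which acts on ERK and is induced by it, had 2.47, 2.25 and 2.72 CPM in WT, 4.04, 6.56 and 5.57 in N, 18.8, 11.7 and 17.3 in TAT and 25.8, 23.3 and 38.7 CPM in TM. It rose by 2.68 and 3.56 (edgeR adjusted p = 0.00116 and 3.4e-05), and its 4 groups did not overlap. *Dusp10* fell by 1.43 in TAT and fell by 2.29 in TM, *Dusp4* fell by 1.69 in TAT and fell by 1.81 in TM, and *Dusp9* rose by 2.00 in TM.

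The relatives of ZFP36 and the NAB proteins that restrain EGR1 had 3 of 4 genes called higher in TAT. In TM 4 of 4 were called higher, and *Zfp36l1* rose by 1.34 in TAT and by 2.30 in TM. Of 15 reported targets of AP-1 and EGR1, 7 rose in TAT and 12 in TM, with 0 lower. Whether the members regulate these genes in this tissue was not tested. *Timp1*, an inhibitor of matrix proteases, rose by 4.26 and 5.62, *Spp1*, which encodes osteopontin, by 3.64 and 7.5 and *Fn1*, which encodes fibronectin, by 2.64 and 3.56. *Spp1* reached 1200 CPM in TM of animal 79853 and 157 and 151 CPM in the other TM, against 2.12 to 3.01 CPM in WT. Most transcripts bound by ZFP36 were too low to test, and of the 2 tested *Cxcl1* rose in TM and *Il1b* did not pass. The heat shock genes, 8 in number, had 2 members that rose and 0 that fell in TAT, and 3 that rose and 2 that fell in TM, shares close to those of all genes. There *Hspa8* rose by 2.25 and *Hspa1a* by 1.84, and *Dnajb1* fell by 2.07 and *Hsp90aa1* fell by 1.53. The medians of the targets were 2.64 and 4.55 in TAT and TM, and those of the heat shock genes 0.50 and 0.33.

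**Figure D5:**
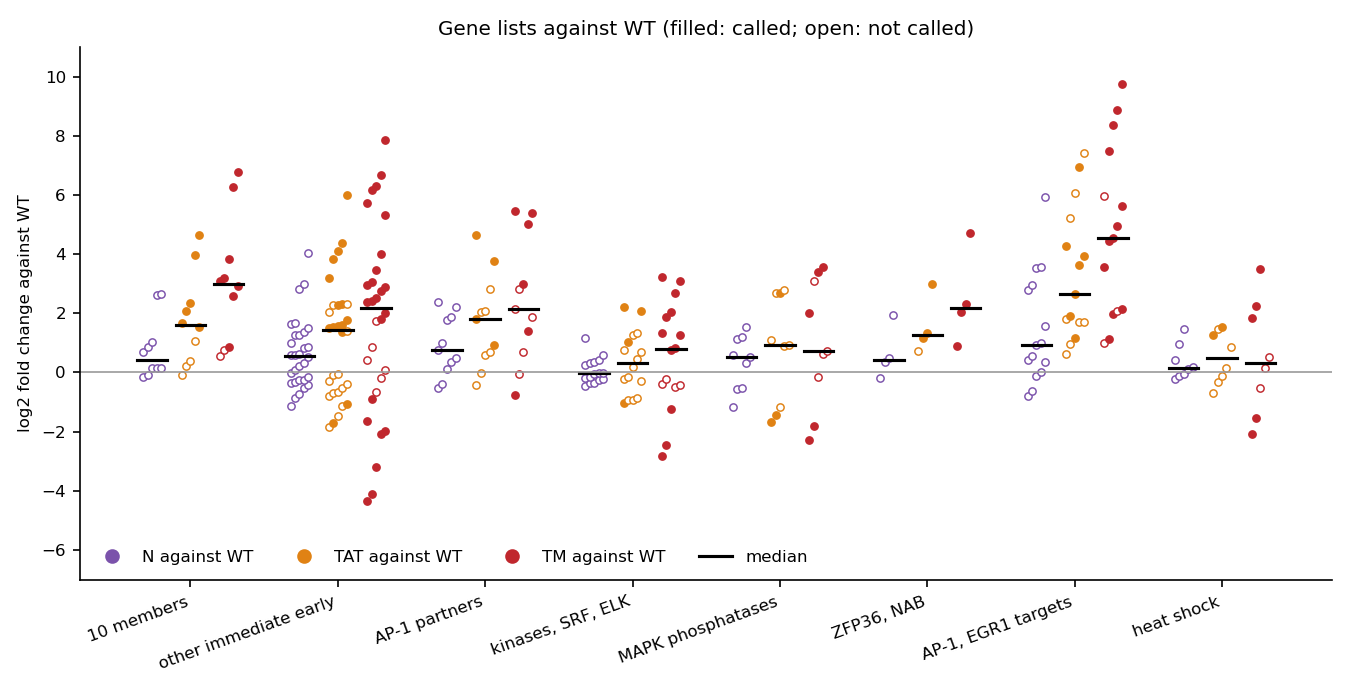
Log2 fold change against WT (vertical axis) of every tested gene of the 10 members and of 7 related gene lists in N, TAT and TM. Each point is 1 gene, filled where called, and the black bar is the median of the list; the median of the members is 0.42, 1.61 and 2.99, and in TM other immediate early genes are found on both sides of 0.

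In bulk samples such as these, fewer cells of a type and less RNA per cell cannot be told apart, and the make-up of the tissue moved with the regions. Of 8 spermatid markers 3 fell in TAT and 8 in TM against WT, and the summed level of WT animals, 25200 to 31500 CPM, compared with 18600 to 25700 CPM for N, 4250 to 11000 CPM for TAT and 430 to 3350 CPM for TM. Macrophage markers summed to 62.8 to 63.5 CPM for WT, 80.2 to 95.8 CPM for N, 215 to 338 CPM for TAT and 468 to 900 CPM for TM, with 4 and 5 of 7 called higher. Endothelial markers summed to 4.95 to 11.9 CPM for WT, 13.7 to 20.4 CPM for N, 23.8 to 70.3 CPM for TAT and 18 to 64.6 CPM for TM, with 4 and 5 of 7 called higher. TAT and TM overlapped in the endothelial sum and not in the macrophage and spermatid sums.

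Smooth muscle-like myoid markers summed to 363 to 486 CPM for WT, 393 to 482 CPM for N, 414 to 1690 CPM for TAT and 546 to 1920 CPM for TM, with 2 and 4 of 6 called higher and 1 lower in TM. Red blood cell markers had 386 to 571 CPM in WT and 566 to 576 in N, but 1710 to 3290 in TAT and 19200 to 49000 CPM in TM. Spermatocyte markers summed to 8160 to 9830 CPM for WT, 7840 to 9190 CPM for N, 4570 to 7640 CPM for TAT and 328 to 2690 CPM for TM, with 7 of 7 called lower in TM. Leydig cell markers differed most between WT and N, with 2650 to 5530 CPM for WT, 418 to 482 CPM for N, 563 to 835 CPM for TAT and 548 to 1210 CPM for TM, and 1 of 7 was called lower in N. The list was mixed in the other regions against WT, with 2 called higher and 2 lower in TAT. In TM 2 Leydig markers were called higher and 4 lower. Leukocyte markers summed to 0.53 to 2.72 CPM for WT, 1.55 to 3.66 CPM for N, 4.28 to 7.55 CPM for TAT and 13.4 to 38.7 CPM for TM, and *S100a8* and *S100a9* were at 0 in N. Sertoli cell markers, 7 of 8 in the table, summed to 995 to 1750 CPM for WT, 1990 to 2110 CPM for N, 3410 to 4080 CPM for TAT and 2940 to 3920 CPM for TM. Against WT, 1 Sertoli marker was called higher and 0 lower in TAT, and 2 were called higher and 1 lower in TM. Every marker of the spermatid, spermatocyte, Leydig, macrophage, endothelial, myoid and Sertoli lists that was in the table was above 0 in each group. The part that each cell type had in the levels of *Fos*, *Jun*, *Egr1* and the other members was not tested.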

How the data were processed

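RNA of testis pieces was sequenced as 17 libraries, primed on the poly(A) end of transcripts with barcoded primers that also carried molecular identifiers. The deposited values are expected counts (estimated counts per gene, not normalised), for which the authors aligned reads to GRCm38 by STAR and quantified them with Salmon, per the study's methods, whereas the submitters' processing notes name STAR 2.6.1d and featureCounts of Subread 2.0.1. The annotation release and any removal of duplicates by identifier are not given in the sources used here. Gene positions are those of GENCODE M21.

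Counts were added up per animal and region and then rounded, since pieces of an animal are not independent. edgeR 4.0.16 in R 4.3.3 (TMM, filterByExpr by group, quasi-likelihood test) tested N, TAT and TM against WT in all 12 summed libraries and the KO regions against each other in 9 with the animal as a block, with Benjamini-Hochberg adjustment over all genes tested. The SE of a log2 difference was taken from its F value. The labels tie the regions to animals; deviations of libraries from their region means correlated by 0.0922 on average within an animal (0.0164 to 0.35, 9 pairs) and by -0.0458 between animals (18 pairs). Duplicate deposits were not found (chi-square per gene 22.5 to 155 within groups). Log2 CPM used a prior count of 2. The floor for a gene at 0 was 3 counts in a library, which covers counting error only.

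The members and gene lists were chosen with earlier results of these data known. Named beside the members were up to 4 genes of each list with the smallest p against WT, any called gene against the majority of its list, and the 2 genes most alike to each member, apart from some results that are not reported here. Tests were checked on simulated counts. Alternatives were other scalings, no filter, no fold threshold, only the groups compared, testis 1 alone of KO animal 79813, thinned counts, no block, pieces as replicates, limma-voom (limma 3.58.1) on 17 libraries with and without a random block, DESeq2 1.42.0 and each animal left out.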

Additional observations from a re-analysis of the deposited data

Results flagged for a closer look

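In groups of 4 to 10 libraries, a library was taken as standing apart when its gap to the nearest other library, as a share of the range of the group, passed the 95% critical value of Dixon. Of 30 sets of libraries tested (10 members in N, TAT and TM), 3 had such a library. Chance flags about 1 in 20 sets where libraries are independent, which these are not, since 4 of the 6 TM libraries and 2 of the 4 in N and in TAT come from KO animal 79813. *Junb* in TM of KO animal 79853 was at 122 CPM, beside 34.7 to 45.1 CPM in the other 5 TM libraries. *Jund* in the same library was at 96.5 CPM, and the next TM library at 59.6 CPM. *Atf3* in TAT of KO animal 79781 was at 3.01 CPM, and the next TAT library at 0.660 CPM. These levels were scaled over the 17 single libraries and differ slightly from those of the summed libraries.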

How the results depend on the processing

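The members were tested again under 11 other settings in each comparison and with each animal left out. Of 910 results of single members, 804 kept their direction and their side of the threshold, 43 lost a call, 30 gained one and 33 changed sign, all of the last without a call in either setting. In N against WT the count of members called stayed at 0 except under DESeq2 (1). In TAT against WT it was 3 under limma-voom on 17 libraries, and 2 to 6 with an animal left out. In TAT against N, where 0 were called, it was 2 by total library size (beside 6.31% of all genes), 4 with only the groups compared (24.4%), 3 with thinned counts (5.49%), 4 with pieces as replicates (13.2%), 2 under limma-voom on 17 libraries (11.4%), 3 under DESeq2 (19.3%) and 0 to 2 with an animal left out. In TM against TAT it was 0 to 5 with an animal left out. Without the replicate block it was 0 in TAT against N, 8 in TM against N (*Dusp1* was lost, adjusted p = 0.0671) and 6 in TM against TAT, so that the pairing changed no other call. The cause of these shifts was not tested.

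The signs that changed belong to log2 differences that did not pass. For *Jund* in N they were 0.05 by total library size, 0.01 without the filter and -0.21 to 0.07 with an animal left out. For *Jund* in TAT they were 0.19 by total library size, 0.00 with thinned counts and -0.22 to 0.06 with an animal left out. For *Fosb* against WT, limma-voom on 17 libraries and with the animal as a random replicate block gave -0.52 and -0.41 in N, -1.29 and -1.15 in TAT and -1.06 and -0.77 in TM, and leaving out an animal gave -0.30 to 1.26, -1.86 to 1.32 and -0.42 to 1.64. For *Dusp1* in N the same settings gave 0.04, 0.10 and -0.32 to 0.21, and leaving out an animal gave -0.11 to 0.55 for *Junb* and -0.04 to 0.50 for *Egr1*. In TAT against N *Jund* was -0.18 by RLE size factors and by DESeq2, -0.05 with testis 1 alone and -0.10 to 0.16 with an animal left out, and *Fosb* was 0.09 without the replicate block and -2.73 to 0.55 with an animal left out. In TM against N *Fosb* was 0.44 without the replicate block and -1.06 to 1.02 with an animal left out, and in TM against TAT *Dusp1* was -0.10 under limma-voom on 17 libraries.

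Total library size shifted the median of all genes to 0.16, 0.35 and 0.25 in N, TAT and TM against WT, from 0.03, 0.07 and -0.07 by TMM. Of the calls in TAT against WT, 75.8% were higher by TMM, 58.4% by RLE and 87.9% by total library size. Depth limits *Fosb* in all groups and *Fos* and *Atf3* in WT.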
